A study of Mus musculus with 3 samples.

Results

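The genes described here are Epb42, Sptb, Ank1, Slc4a1, Rhag and Kel, which build or mark the membrane of the red cell, and Trim10. The 7 are together called red cell membrane genes below, although Trim10 is not a known part of the membrane. They were chosen by name with earlier results of these data known, as were the gene lists below. A count set beside the share of all genes is thus a description and not independent support. Every probe whose gene symbol in the platform annotation is one of these 7 was used. Each gene had 1 probe, so 7 of 20289 probes on the array, and 7 of 13697 named genes, are concerned. All 7 passed the level filter, an intensity above the array's median in at least 1 of the arrays compared, in each of the 3 comparisons.

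The samples were fetal livers of mouse embryos at E14.5, the day of gestation, each hybridised to a single-colour CodeLink oligonucleotide array. One array stood for each genotype: wild-type embryos, DNase II-deficient embryos (without the lysosomal nuclease with which macrophages digest engulfed DNA), and double-deficient embryos (DNase II-/- and IFN-IR-/-, the second being the receptor of type I interferon). The labels used here state neither the strain nor the type of allele nor how many embryos gave RNA to an array. A genotype has no second array, so each fold below is a value without a replicate check and carries no test. Intensities are the deposited normalised values, on a linear scale whose typical probe reads just under 1 in every array.

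A mature red cell keeps its shape because a lattice of spectrin lies under the membrane and is tied to it at fixed points. Ankyrin links spectrin to band 3, the anion exchanger, protein 4.2 steadies that link, and the Rh complex and the Kell protein sit at such junctions or near them. Erythroblasts switch on these genes as they mature, and in the fetus they do so in the liver, around macrophages that engulf the nuclei they expel. Embryos without DNase II are known to be anaemic.

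The arrays carried the marks of fetal liver. Afp, the fetal plasma protein of hepatocytes, read 582.5 in wild-type, 885.1 without DNase II and 568.5 in the double-deficient array, and the adult globin gene Hbb-bt read 1032, 894.5 and 993.5. The labels could not be checked on the targeted genes, because the labels do not say where their probes lie relative to the deletions: Dnase2a read 40.4, 48.6 and 39.7, and Ifnar1, a chain of the interferon receptor, 3.60, 4.66 and 3.17. Irf7, an interferon-induced transcription factor, read 3.75, 192.6 and 2.68. The median log2 difference over all genes compared was -0.21 between the DNase II-deficient array and wild-type, 0.11 between the double-deficient array and the DNase II-deficient one, and -0.08 between the double-deficient array and wild-type.

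The comparison of DNase II-deficient with wild-type liver asks how red cell membrane genes stand when engulfed DNA is not digested. They were lower in the mutant, with the exception of Ank1. Of the 7 genes, 5 were lower by 2-fold or more and none was higher by as much, in a comparison where 6.17% of 8383 genes were that much lower and 7.67% that much higher. Their median log2 difference was -1.29, against -0.21 over all genes compared, and the values ran from -2.09 for Trim10 to -0.11 for Ank1. In bulk tissue, fewer red cell precursors and less of these messengers per cell cannot be told apart. With loess scaling, which brought the median of all genes to 0.01, the count of 5 was 3, since Kel and Slc4a1 each stood at -0.97, and 3.58% of all genes were as much lower.

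**Figure D1:**
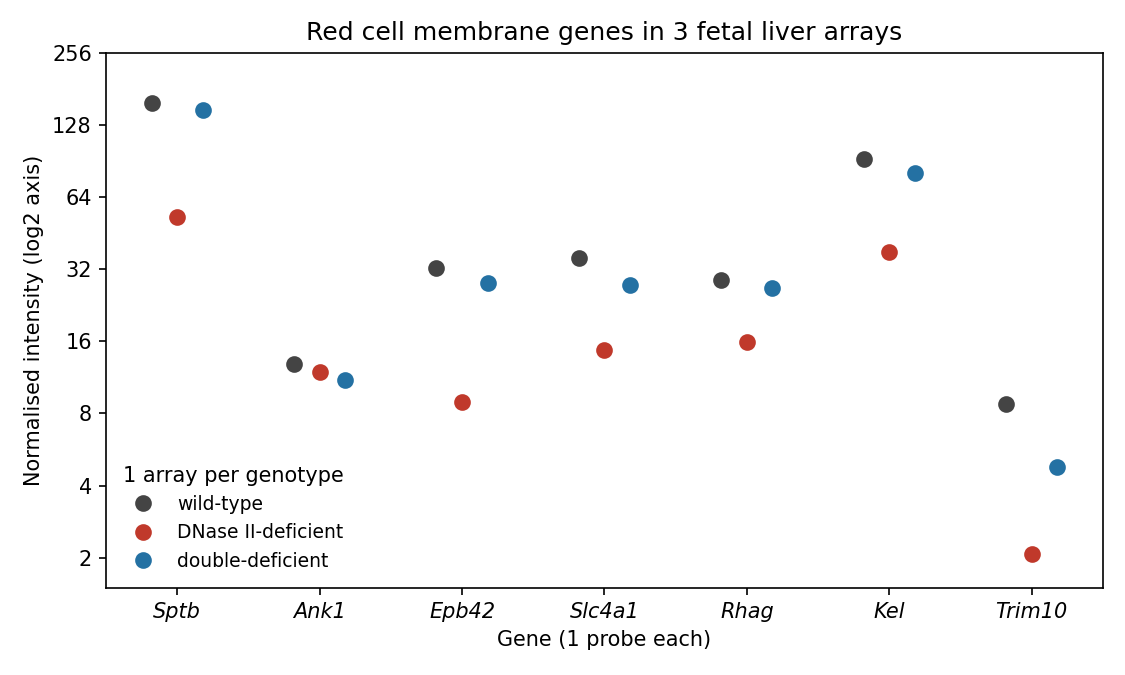
Normalised intensity (log2 axis) of the 1 probe of each of 7 red cell membrane genes, with 1 point per array and 1 array per genotype. For all but Ank1 the DNase II-deficient array is the lowest of the 3, while the double-deficient array lies close to wild-type except for Trim10; Ank1 reads 12.8, 11.9 and 11.1.

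The spectrin skeleton itself is represented by Sptb, Ank1 and Epb42. Sptb, which encodes the beta chain of red cell spectrin, had an intensity of 158.6 in wild-type liver, 52.8 without DNase II and 147.9 in the double-deficient array. The DNase II-deficient array was thus the low one, at 33.3% of wild-type and 2.80-fold below the double-deficient array, and those other arrays differed by 0.10 on the log2 scale. Epb42, the gene of protein 4.2, read 32.5, 8.93 and 28.1 in the same order. It was 3.64-fold lower in the DNase II-deficient array than in wild-type, the 63rd lowest of 8383 differences, and 3.14-fold higher in the double-deficient than in the DNase II-deficient array, the 37th highest of 8303. Ank1, the gene of red cell ankyrin, read 12.8, 11.9 and 11.1, so no array stood apart. Its log2 difference of -0.11 in the DNase II-deficient array lay 0.10 above the median of all genes, and its sign turned to 0.08, 0.02 and 0.15 under quantile, 75th percentile and loess scaling and to 0.10 with centring. The gap from Ank1 to Rhag, the next gene in the order of differences, was 0.76 on the log2 scale, wider than the spread of 0.44 and 0.46 among genes of like level. That spread describes the scatter of these arrays and not of replicates. The Ank1 value rests on 1 probe, and the labels do not say which transcripts of the gene it reads.

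Among the proteins that span the membrane, Slc4a1 encodes band 3, which exchanges chloride for bicarbonate and anchors the skeleton. It read 35.6 in wild-type, 14.7 in the DNase II-deficient array and 27.5 in the double-deficient array. The DNase II-deficient value was 41.4% of wild-type and the double-deficient value 77.3%. Rhag, the gene of the Rh-associated glycoprotein that carries the Rh antigens to the surface, read 28.9, 15.8 and 26.6. At 54.8% of wild-type in the DNase II-deficient array it was the only gene other than Ank1 that stayed within 2-fold, and in the double-deficient array it stood at 92.1%. Kel, which encodes the Kell blood group protein, a surface metalloprotease, read 92.0, 37.7 and 81.0. It was 2.44-fold lower in the DNase II-deficient array than in wild-type and 2.15-fold higher in the double-deficient than in the DNase II-deficient array. For each of these genes the DNase II-deficient array was again the lowest. Kel and Slc4a1 had nearly the same difference from wild-type, 0.01 apart on the log2 scale.

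Trim10 encodes a RING-finger protein of differentiating erythroblasts and is not itself a known part of the membrane. It read 8.80 in wild-type, 2.07 in the DNase II-deficient array and 4.77 in the double-deficient array, so the 3 arrays were spaced apart. It had the largest difference of the 7 genes in DNase II-deficient against wild-type, 4.24-fold lower and the 40th lowest of 8383, although the step of 0.22 to Epb42 was smaller than the spread among genes of like level (0.50 and 0.44 on the log2 scale). In the double-deficient array it was 54.2% of wild-type, the 89th lowest of 8158 differences. In that comparison the next gene, Slc4a1, lay 0.51 away on the log2 scale, against spreads of 0.30 and 0.24.

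**Figure D2:**
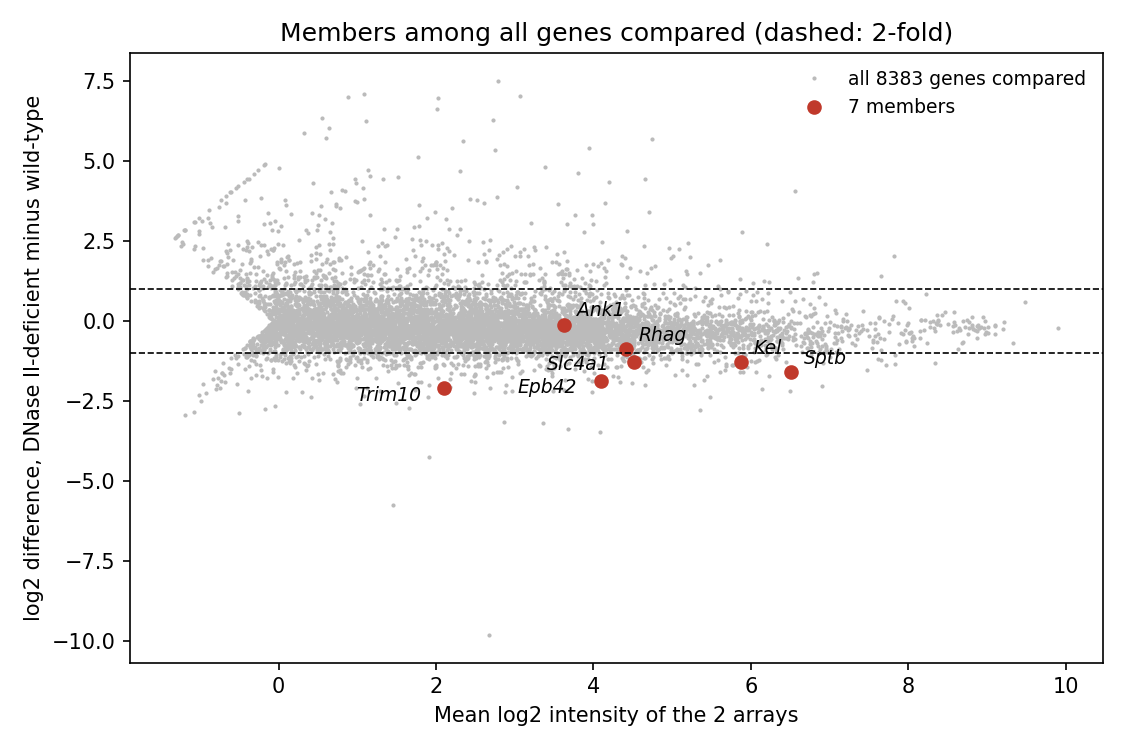
Log2 difference of the DNase II-deficient array from wild-type against the mean log2 intensity of both arrays, for 8383 genes compared (grey) and 7 red cell membrane genes (red), with dashed lines at 2-fold. Trim10, Epb42, Sptb, Kel and Slc4a1 lie below the lower line, Rhag just above it and Ank1 in the middle of the cloud.

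Promoters of these genes are shown because the erythroid factors GATA1 and KLF1 are known to bind GATA and CACCC-type sequences of red cell genes. Whether either factor has a part in the values of the 7 genes was not tested. Promoter windows of 300 bases, from 250 before to 50 after a transcription start, come from RefSeq on build GRCm38.p6, and 5 of the 7 genes have an entry there. Ank1 and Slc4a1 have none. Epb42 is at chr2:121036828-121037127 (minus strand), Sptb at chr12:76710498-76710797 (minus strand), Kel at chr6:41704276-41704575 (minus strand) and Trim10 at chr17:36869324-36869623 (plus strand). Each is written 5′ to 3′ on the strand of its gene, and capitals mark matches on either strand to CCNCNCCC, which may overlap each other, and to GATA preceded by A or T and followed by A or G, called a GATA hexamer below.
Epb42: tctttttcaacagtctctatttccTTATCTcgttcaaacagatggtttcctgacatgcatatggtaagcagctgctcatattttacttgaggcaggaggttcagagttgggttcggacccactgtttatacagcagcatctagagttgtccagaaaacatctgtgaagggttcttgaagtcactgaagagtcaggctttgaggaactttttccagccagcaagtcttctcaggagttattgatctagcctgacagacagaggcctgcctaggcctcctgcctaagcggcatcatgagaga
Sptb: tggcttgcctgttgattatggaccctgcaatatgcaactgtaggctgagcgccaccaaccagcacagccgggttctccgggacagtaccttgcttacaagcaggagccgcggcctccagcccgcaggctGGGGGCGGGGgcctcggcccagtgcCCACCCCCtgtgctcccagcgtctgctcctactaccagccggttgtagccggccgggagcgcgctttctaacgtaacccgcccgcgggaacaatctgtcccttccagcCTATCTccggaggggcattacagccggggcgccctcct
Kel: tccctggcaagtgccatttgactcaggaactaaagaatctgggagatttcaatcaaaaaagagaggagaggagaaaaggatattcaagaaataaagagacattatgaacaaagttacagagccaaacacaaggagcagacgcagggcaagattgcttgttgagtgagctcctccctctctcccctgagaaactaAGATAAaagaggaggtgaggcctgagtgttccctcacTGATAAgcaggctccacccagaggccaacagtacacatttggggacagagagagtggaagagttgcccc
Trim10: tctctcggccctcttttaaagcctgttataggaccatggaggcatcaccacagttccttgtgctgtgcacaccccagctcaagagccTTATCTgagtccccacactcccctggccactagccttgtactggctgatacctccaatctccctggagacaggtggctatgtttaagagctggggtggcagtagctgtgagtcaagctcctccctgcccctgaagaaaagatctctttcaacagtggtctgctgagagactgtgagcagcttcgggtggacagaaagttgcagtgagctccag

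All 5 windows, that of Rhag at chr17:40810899-40811198 (plus strand) included, held at least 1 GATA hexamer. In Kel there were 2, beginning 56 and 19 bases before the start, in Rhag 1 at 31 before, in Trim10 1 at 163 before, in Epb42 1 at 226 before and in Sptb 1 that begins 12 bases after the start. A GATA hexamer was held by 29.8% of all 32851 windows, which belong to 27025 genes, and by 26.8% of 41 windows of 28 other red cell membrane genes. These shares are of windows, and a gene can have several, while each of the 5 genes here has 1. CCNCNCCC was found in 1 of the 5 windows, that of Sptb, with 3 matches of which a pair overlaps, in 49.5% of all windows and in 80.5% of the 41 windows of other red cell membrane genes. This pattern does not cover every CACCC-type sequence. The shorter CACCC, on either strand, is in the windows of Kel, Trim10 and Rhag, and its share over all windows was not counted. These matches are descriptions of letters and not of binding, and no match says only that the letters are not in the window.

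The wider set of red cell membrane genes was read from 3 lists, of the skeleton, of transporters and channels, and of blood group and surface proteins. Outside the 7 genes, 30 of them were compared, and 11 were at least 2-fold lower and 1 at least 2-fold higher in the DNase II-deficient array, where 6.17% and 7.67% of all genes compared were so. Their median log2 difference was -0.77. With loess scaling 8 of the 30 were at least 2-fold lower and the median was -0.48, where 3.58% of all genes were as much lower. The lists did not look alike. Among the skeleton genes other than Sptb, Ank1 and Epb42, 1 of 8 was at least 2-fold lower and the median was -0.10, close to that of all genes. Among transporters and channels other than Slc4a1, 5 of 11 were at least 2-fold lower with a median of -0.86, and among blood group and surface proteins other than Rhag and Kel, 5 of 11 with the same median of -0.86. Whether the lists differ from each other was not tested.

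In the skeleton list the lower gene was Dmtn, which encodes the actin-bundling protein dematin. It read 19.5 in wild-type, 6.35 in the DNase II-deficient array and 15.2 in the double-deficient array, 3.08-fold lower in the first mutant. Of the adducins, which cap the short actin filaments of the skeleton, Add1 had a log2 difference of -0.93, and Add3 was too dim to be compared, at 0.252 and 0.317 in wild-type and DNase II-deficient liver. The Add2 probe used here had one of -0.76, but a second Add2 probe read 11.8, 1.80 and 9.22, a difference of -2.71. Both Add2 probes were lowest in the DNase II-deficient array, and the size depended on the probe. Actb, a cytoplasmic actin gene, read 292.4, 299.8 and 334.8 and Tpm3, a tropomyosin gene, 25.7, 25.4 and 26.7, and with loess scaling their differences from wild-type in the DNase II-deficient array were 0.33 and 0.29 on the log2 scale. Tpm1, another tropomyosin gene, went the other way from 1.14 to 2.59 and back to 1.09, the one gene of the lists that was at least 2-fold higher.

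Among transporters, Slc43a1, an amino acid transporter gene, read 34.3, 10.5 and 22.3 in the order wild-type, DNase II-deficient, double-deficient, and was 3.28-fold lower in the DNase II-deficient array. Slc14a1, the urea transporter that carries the Kidd antigens, read 20.1 in wild-type and 6.19 in the DNase II-deficient array, 3.25-fold lower, and its other probe had a log2 difference of -0.88. Aqp1, the water channel, was 2.55-fold lower, and Kcnn4, a calcium-activated potassium channel gene, 2.25-fold lower. Slc29a1, a nucleoside transporter gene, was at the edge of the threshold at 2.01-fold. The glucose transporter gene Slc2a1 read 40.0, 34.2 and 32.4, and the exporter gene Abcg2 54.2, 31.4 and 43.1. All 12 genes of this list, Slc4a1 included, read lower in the DNase II-deficient than in the wild-type array as deposited by the brightest probe, but a second Slc12a4 probe went from 0.943 to 1.06, and Slc2a1, with the smallest difference of -0.23, turned to 0.02 and 0.09 with quantile and loess scaling.

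Among blood group and surface proteins, Icam4, the adhesion molecule of the LW blood group, read 10.9, 2.91 and 6.32, 3.73-fold lower in the DNase II-deficient array than in wild-type. Rhd, which encodes the Rh protein that pairs with Rhag, read 136.1, 41.3 and 83.5 and was 3.30-fold lower, against 1.83-fold for Rhag itself. Art4 of the Dombrock group was 3.12-fold lower and Ackr1 of the Duffy group 2.62-fold lower. Cd24a, a surface antigen of erythroblasts and other blood cells, read 327.7, 159.3 and 276.4. Cd47, a surface protein found on most cells, read 59.4, 63.3 and 46.4, and Xk, whose protein is linked to Kell, 11.5, 9.71 and 8.10. Xk thus had a log2 difference of -0.24 where Kel had -1.29.

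**Figure D3:**
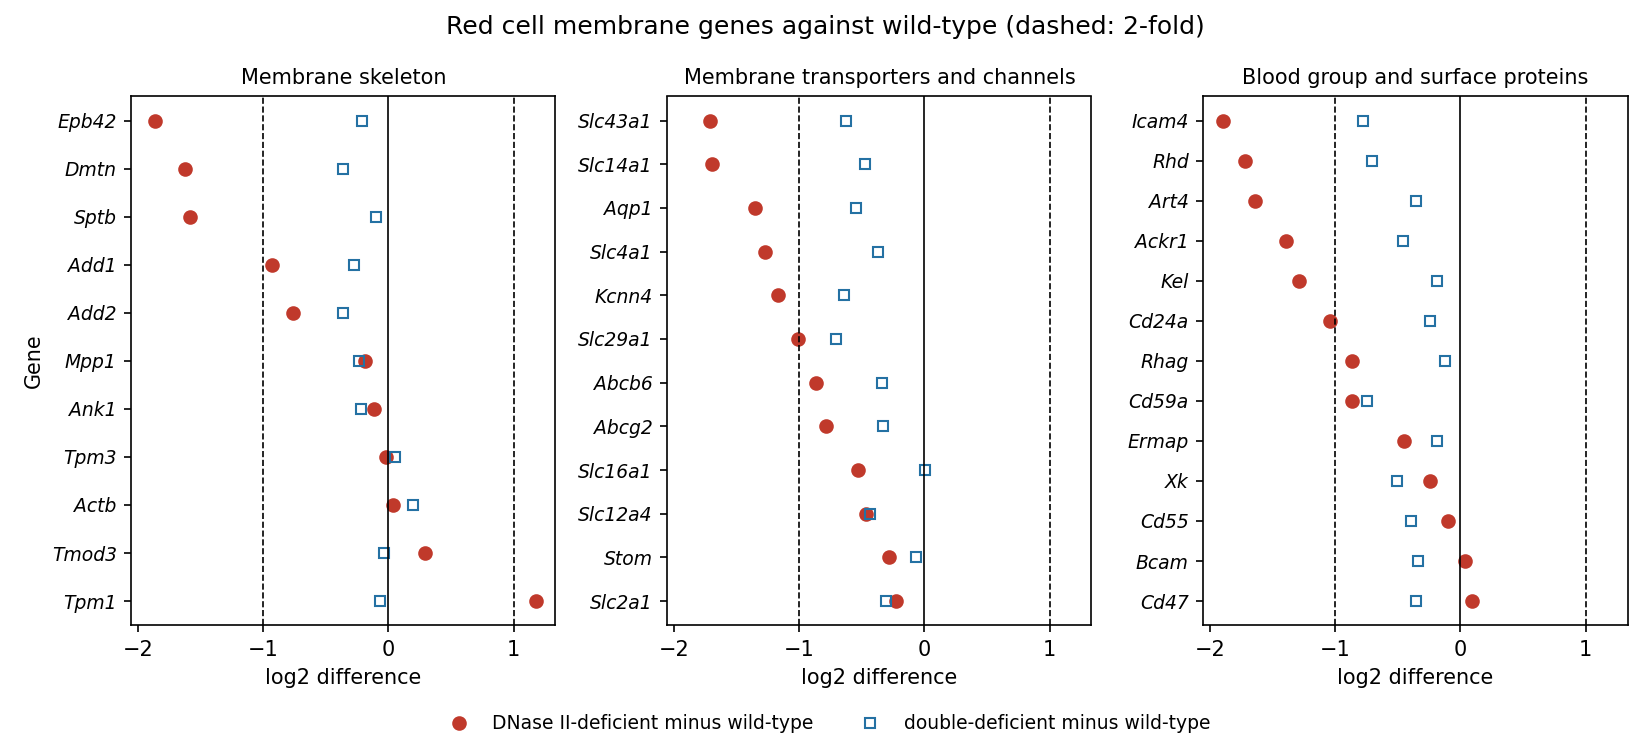
Log2 differences from wild-type of the red cell membrane genes compared, by list, with filled circles for the DNase II-deficient array and open squares for the double-deficient array, and dashed lines at 2-fold. In the DNase II-deficient array 15 of 36 genes lie at or beyond 2-fold lower and Tpm1 beyond 2-fold higher; all squares lie within 2-fold.

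The comparison of the mutants asks what loss of the interferon receptor alters where DNase II is absent. Of the 7 genes, Epb42, Sptb, Trim10 and Kel were at least 2-fold higher in the double-deficient than in the DNase II-deficient array, and none was at least 2-fold lower. Kel fell short of 2-fold with quantile and loess scaling and with centring, at 0.96, 0.92 and 0.99 on the log2 scale, and Trim10 with log2(value + 1), at 0.91; with the level filter at the 75th percentile Trim10 was not compared. Over all 8303 genes compared, the share at least 2-fold higher was 3.11% and the share as much lower 4.85%. The median log2 difference of the 7 was 1.10, against 0.11 over all genes. Slc4a1 was 1.87-fold and Rhag 1.68-fold higher, and Ank1 differed by -0.11. In this order of differences, each gene from Rhag up to Epb42 was closer to the next than the spread among genes of like level, which was 0.33 to 0.40 for the 7 genes, and Ank1 lay 0.85 below Rhag. Since both comparisons use the DNase II-deficient array, its errors enter each of them.

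Outside the 7 genes, 6 of 30 membrane genes were at least 2-fold higher in the double-deficient than in the DNase II-deficient array: Art4 (2.44-fold), Dmtn (2.40-fold), Slc14a1 (2.34-fold), Icam4 (2.17-fold), Slc43a1 (2.13-fold) and Rhd (2.02-fold), where 3.11% of all genes were. With loess scaling the 6 became 3, since Icam4, Slc43a1 and Rhd stood at 0.997, 0.92 and 0.84 on the log2 scale, under the threshold of 1. Tpm1 was 2.37-fold lower. The median of the 30 was 0.35.

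Against wild-type, the double-deficient array asks what remains when both genes are missing. None of the 7 genes was at least 2-fold different, and the share of all 8158 genes compared that was at least 2-fold lower was 0.735%, with 2.05% at least 2-fold higher. The 7 genes were nevertheless each a little below wild-type as deposited, with log2 differences from -0.88 to -0.10 and a median of -0.21, where the median of all genes was -0.08. The sign of Sptb turned to 0.07 with quantile and 0.04 with loess scaling. Sptb stood at 93.3% of wild-type, Kel at 88.1%, and Epb42 and Ank1 at 86.4% and 86.1%. For Sptb, Rhag, Kel, Epb42 and Ank1 the difference was smaller than the spread among genes of like level, for Slc4a1 it was 1.57 times that spread, and for Trim10 2.98 times. None of the 30 other membrane genes was at least 2-fold different, and their median was -0.35. The lowest of them were Icam4 and Cd59a, both genes of surface proteins, at -0.78 and -0.75 on the log2 scale.

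Other genes of the red cell lineage give the setting. Of 11 late erythroid genes compared, 7 were at least 2-fold lower in the DNase II-deficient array than in wild-type, with a median log2 difference of -1.06. Over all genes compared, 6.17% were that much lower. With loess scaling Bpgm, Fech and Ubac1, which are among the 7, stood at -0.83, -0.75 and -0.74 on the log2 scale, short of 2-fold. The share of all genes that much lower was then 3.58%. Xpo7, a nuclear exportin gene, read 191.6, 42.4 and 156.6, Slc25a37, the mitochondrial iron importer gene, 147.2, 33.9 and 117.0, and Hemgn, a nuclear protein gene of erythroblasts, 103.7, 34.4 and 61.4. Car2, a carbonic anhydrase gene, was 2.59-fold lower. Of 9 erythroid transcription factor genes, Nfe2, Klf1 and Gata1 were 2.64-fold, 2.59-fold and 2.18-fold lower, and Lmo2 1.88-fold. Gata1 stood at -0.87 on the log2 scale with loess scaling, short of 2-fold. Klf1 read 15.9, 6.14 and 16.1, so its double-deficient value was level with wild-type.

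The list of early erythroid and progenitor genes, not all of them specific to red cells, did not share the pattern as a whole. Of 8 genes of the early erythroid and progenitor list compared, 2 were at least 2-fold higher in the DNase II-deficient array, Cd33 and Cd34, and 1 at least 2-fold lower, Epor, the erythropoietin receptor gene, at 2.32-fold. The shares over all genes compared were 7.67% and 6.17%, and Epor stood at -0.99 on the log2 scale with loess scaling. Cd33 was dim, at 0.328 in wild-type and 0.963 in the DNase II-deficient array. The list's median was 0.58. Tfrc, the transferrin receptor gene, read 18.6, 33.5 and 17.7. The globins of primitive, yolk-sac red cells were higher in the DNase II-deficient array, with Hba-x at 61.1, 154.8 and 35.2, Hbb-y at 224.0, 403.5 and 133.0, and Hbb-bh1 at 183.8, 288.1 and 145.3.

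Markers of other liver cells moved as well, and their part in the values of the membrane genes was not tested. Over all genes compared, 7.67% were at least 2-fold higher in the DNase II-deficient array than in wild-type and 6.17% as much lower. All 8 granulocyte markers compared were at least 2-fold higher, with Prtn3 at 3.45-fold, Camp at 3.41-fold, Ngp at 3.15-fold and Ltf at 3.13-fold. The summed intensity of the 9 granulocyte markers on the array, Mpo included though too dim to be compared, was 276.2, 786.3 and 632.2 in the 3 arrays. Of 12 macrophage markers compared, 3 were at least 2-fold lower and 3 higher, and the 14 on the array had summed intensities of 180.3, 191.7 and 189.7. Marco, Cd5l and Clec4f were 10.3-fold, 8.97-fold and 7.16-fold lower. Fcgr1, Siglec1 and Lyz2 were 5.05-fold, 3.74-fold and 2.12-fold higher. The folds of Clec4f and Siglec1 each rest on a dim value. Clec4f went from 1.27 to 0.177, beside a floor of 0.159 in the DNase II-deficient array, and Siglec1 from 0.267 to 0.997. The other 6, Vcam1 and Mertk among them, stayed within 2-fold, from -0.52 for Mrc1 to 0.83 for C1qb on the log2 scale. Of 10 hepatocyte markers 1, Serpina1a, was at least 2-fold lower and none higher, with sums of 3349, 3451 and 3055, and Trf and Apoa2 differed by 0.57 and -0.53 on the log2 scale. In none of these lists was a gene at the floor in every array, although Clec4f was at the floor in the double-deficient array, and Adgre1, the F4/80 antigen gene, was dim throughout at 0.269, 0.282 and 0.271.

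**Figure D4:**
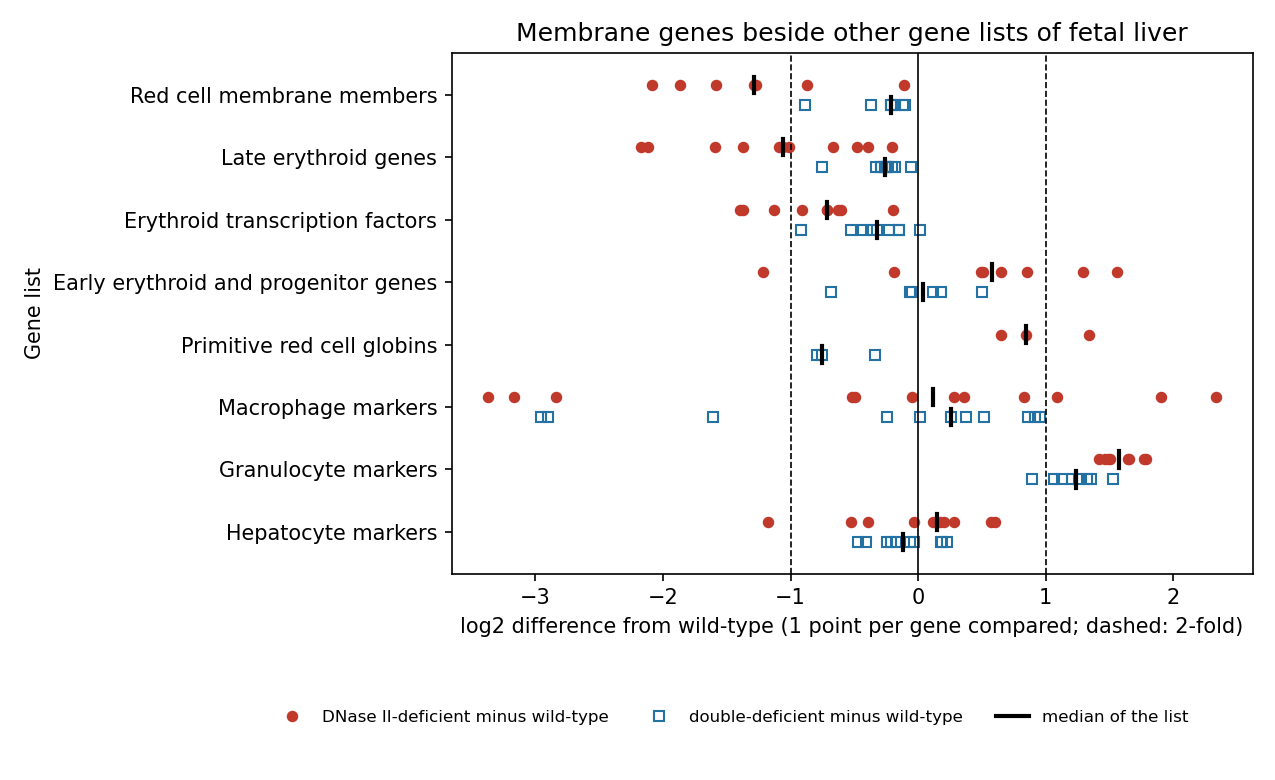
Log2 differences from wild-type for each gene compared in 8 lists, with filled circles for the DNase II-deficient array, open squares for the double-deficient array, black bars for list medians and dashed lines at 2-fold. The 7 membrane genes have medians of -1.29 and -0.21, the late erythroid genes -1.06 and -0.26, and the granulocyte markers 1.57 and 1.23.

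Genes whose pattern over the 3 arrays lay near the medians of the 7 were sought among 7454 genes above the median of every array. The measure was the distance between their log2 differences from wild-type in both mutants and those medians, -1.29 and -0.21. The 7 were themselves spread around that point, from -2.09 to -0.11 and from -0.88 to -0.10. Nearness to it is thus not likeness to each of the 7. The nearest were Tlcd1, G6pc, Mkrn1, Marchf8, Drd4 and Lingo2, at distances of 0.01 to 0.06 on the log2 scale. Tlcd1 read 9.58, 3.94 and 8.20, and G6pc, the glucose-6-phosphatase gene of hepatocytes, 135.2, 56.0 and 118.1. With 3 arrays such a pattern is easily shared: 134 genes lay within a distance of 0.25.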

How the data were processed

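Per the labels' protocols, RNA was purified on its poly(A) tails, amplified with a biotinylated nucleotide, hybridised and stained with Cy5-streptavidin, and images were read with CodeLink System Software, whose version, background method and filters the labels leave unstated. The deposited values are intensity on a linear scale, already normalised by the authors by an unstated method: medians were 0.958, 0.959 and 0.964. Arrays have no depth, and precision is limited by their number. Of 20289 probes, 125 lacked a value in some array and were left out.

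Gene names come from the platform annotation, which can be old (15120 probes with 1 symbol, 38 with several and 5131 with none). Entrez identifiers of 15064 probes matched the RefSeq table. The brightest probe stood for each of 1244 genes with several. Values below the array's 25th percentile were set to it and log2 transformed, which understates changes of dim genes, and genes above the array's median in at least 1 of the 2 arrays were compared and counted at 2-fold. The spread among genes of like level is 1.4826 times the median absolute deviation over 500 neighbours in mean level. No test was run. The steps were run on simulated arrays with planted differences and less scatter than these arrays. That run checks the code and does not say how reliable the 2-fold counts of these data are.

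The 7 genes and all lists were chosen with earlier results of these data known. Named besides the 7 were the membrane list genes at least 2-fold different or among the 3 brightest of a list, the 4 most different genes of each other list, and the 6 nearest to the medians of the 7. Add1, Add2, Add3, Cd59a, Slc12a4, Xk, Cd47, Hbb-bt, Bpgm, Fech, Ubac1, Adgre1, Siglec1, Lyz2, Vcam1, Mertk, Mrc1, C1qb and Irf7 were added with their values known. Python 3.11.15, pandas 2.3.3, numpy 2.4.6 and statsmodels 0.14.6 (loess) were used.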

Additional observations from a re-analysis of the deposited data

How the results depend on the processing

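The alternatives were quantile, 75th percentile and loess scaling, other floors, log2(value + 1), other rules for probes and for the level filter, and, chosen after seeing the data, centring on the median difference. The 5 genes at least 2-fold lower in DNase II-deficient minus wild-type became 3 with cyclic loess, where Kel and Slc4a1 were at -0.97 and -0.97 on the log2 scale, and there were 5 under each of the others. The 4 genes higher by 2-fold or more in double-deficient minus DNase II-deficient became 3 with quantile, loess, log2(value + 1), the filter at the 75th percentile and centring. Over the 3 membrane lists together, 15 genes were at least 2-fold lower in DNase II-deficient minus wild-type. That count ranged from 10 with loess to 16 with the mean of all probes or with no level filter. The 9 genes of these lists that were 2-fold or more higher in double-deficient minus DNase II-deficient became 5 with loess. The 1 gene of these lists at least 2-fold higher in DNase II-deficient minus wild-type, and the 1 at least 2-fold lower in double-deficient minus DNase II-deficient, became 0 with log2(value + 1) and with the filter at the 75th percentile. Of 209 recomputed differences of the 7 genes, 104 were equal to the value reported, those under other floors, filters and probe rules. These settings could not alter a value, because each gene has 1 probe, reads above every floor used and is only kept or dropped by a filter. Of them, only the filter at the 75th percentile could alter a count of the 7. The other 105 (scalings, log2(value + 1) and centring) moved by less than the spread among genes of like level. The lists' median ranged from -0.87 to -0.60, from 0.34 to 0.53 and from -0.35 to -0.24 in the 3 comparisons. Scaling shifted the whole table: of genes 2-fold different in DNase II-deficient minus wild-type, 55.4% were higher as deposited and 73.0% with loess, where 3.58% of all genes were 2-fold lower. The second brightest probe does not exist for the 7 genes. No paired analysis was possible because each genotype has 1 array, and for the same reason no array could be left out.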
